A study of Mus musculus with 18 samples.

Results

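Hair keratins and keratin-associated proteins are the structural proteins of the hair shaft and its inner sheath. The set described here held the 22 listed genes Krt25, Krt26, Krt27, Krt28, Krt31, Krt32, Krt33a, Krt33b, Krt34, Krt35, Krt71, Krt72, Krt73, Krt75, Krt81, Krt82, Krt84, Krt85, Krt86, Tchh, Padi3 and Foxn1, together with every gene whose symbol begins with Krtap and does not carry the ending -ps. The gene tables held 79 of these genes among 55450, namely 21 of the 22 listed genes and 58 Krtap genes. Krtap19-9a is annotated as a processed pseudogene in GENCODE. Krt85 was not analysed here. The set was proposed with the levels of these genes in these tumors already known, so their levels are given as a description.

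The libraries came from mouse mammary tumors that arose spontaneously, 18 as labelled, and per the series design no animal gave more than 1. All animals carried MMTV-Cre(+) and Pikca(H1047R, het), the label's spelling of 1 activated Pik3ca allele, and they differed in the label of Cbfb, which encodes the partner subunit of the RUNX transcription factors. There were 14 Cbfb(het) tumors, 1 Cbfb(homo) tumor and 3 Cbfb(wt) tumors, all untreated, and the labels give no age. The MMTV promoter drives Cre in mammary epithelium and is also known to be active in other epithelia such as skin and salivary gland. Levels are TPM as deposited, a unit that corrects for transcript length and for the total of the library, and every count is a rounded expected count. Depth ran from 33210239 to 40974166 rounded expected counts per tumor.

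A hair is built in concentric layers that arise from matrix cells at the base of the follicle. The inner root sheath, which moulds the growing shaft, makes its own keratins and trichohyalin. The cortex, which is most of the shaft, makes hair keratins and embeds them in cysteine-rich and glycine- and tyrosine-rich keratin-associated proteins, while a cuticle of flat cells covers it. The transcription factor FOXN1 is needed for the shaft to keratinize, and mice without it are nude. Hair-type differentiation, called pilar, is known in some mouse mammary tumors.

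Cbfb(het) tumors 10 and 14 were far more alike than any other pair of libraries. Over 14533 genes with at least 50 counts summed over both, their counts differed by a mean chi-square of 4.51 per gene and a median of 1, whereas the next closest pair, Cbfb(het) tumors 2 and 8, had a mean of 94.7. Whether they are 2 tumors, as labelled, or 1 tumor sequenced again was not tested, and they were kept as 2 libraries. The levels and fold changes of Krt75 and Msx1, for which they hold the highest values, are given with and without them. Other Cbfb(het) medians are over all 14 libraries. Over the other 12, the median was 35.9 TPM for Krt27, 96.1 TPM for Tchh, 14.8 TPM for Krt31 and 85.5 TPM for Krtap8-1.

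The bases just before the transcription start of 7 members are shown because many members were high in the same tumors. They are the 250 bases upstream in RefSeq on GRCm38.p6, read 5′ to 3′ along the gene, for 2 inner root sheath keratins, 2 cortex keratins, 2 keratin-associated proteins and Krt75. Capitals mark TATAAA on the gene's strand, CTTTGA, the core bound by LEF1 and TCF factors, on either strand, and GACGC, the core bound by FOXN1, on either strand.
Krt27 (chr11:99351119-99351368, minus strand): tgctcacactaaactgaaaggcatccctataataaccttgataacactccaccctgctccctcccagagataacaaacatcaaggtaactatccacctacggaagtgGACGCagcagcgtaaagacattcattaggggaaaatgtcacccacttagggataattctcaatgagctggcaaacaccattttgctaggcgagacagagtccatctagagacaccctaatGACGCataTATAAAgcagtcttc
Krt73 (chr15:101802361-101802610, minus strand): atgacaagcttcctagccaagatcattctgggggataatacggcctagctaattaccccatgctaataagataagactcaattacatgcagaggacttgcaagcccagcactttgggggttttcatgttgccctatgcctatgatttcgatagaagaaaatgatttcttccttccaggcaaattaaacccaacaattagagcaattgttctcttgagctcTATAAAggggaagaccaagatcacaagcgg
Krt31 (chr11:100050552-100050801, minus strand): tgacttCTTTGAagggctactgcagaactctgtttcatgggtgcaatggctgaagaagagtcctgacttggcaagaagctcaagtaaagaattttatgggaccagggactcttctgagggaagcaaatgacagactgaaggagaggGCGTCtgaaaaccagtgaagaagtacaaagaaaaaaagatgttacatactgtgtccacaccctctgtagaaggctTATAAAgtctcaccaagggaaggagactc
Krt34 (chr11:100041555-100041804, minus strand): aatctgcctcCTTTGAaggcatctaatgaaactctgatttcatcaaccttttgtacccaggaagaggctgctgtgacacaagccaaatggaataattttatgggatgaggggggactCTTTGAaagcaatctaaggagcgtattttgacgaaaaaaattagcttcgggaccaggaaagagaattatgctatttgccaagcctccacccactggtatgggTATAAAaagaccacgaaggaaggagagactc
Krtap8-1 (chr16:89487953-89488202, minus strand): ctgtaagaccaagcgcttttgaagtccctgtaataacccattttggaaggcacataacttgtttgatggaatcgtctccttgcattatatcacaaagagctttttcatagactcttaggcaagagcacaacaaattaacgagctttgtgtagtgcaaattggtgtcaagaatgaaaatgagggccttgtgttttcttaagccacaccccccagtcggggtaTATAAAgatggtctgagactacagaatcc
Krtap3-1 (chr11:99566631-99566880, minus strand): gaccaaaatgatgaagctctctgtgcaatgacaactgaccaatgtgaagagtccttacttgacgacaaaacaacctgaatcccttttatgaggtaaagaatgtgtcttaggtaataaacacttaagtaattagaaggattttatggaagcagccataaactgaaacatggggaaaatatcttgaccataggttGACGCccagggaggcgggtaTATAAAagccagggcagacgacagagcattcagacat
Krt75 (chr15:101573905-101574154, minus strand): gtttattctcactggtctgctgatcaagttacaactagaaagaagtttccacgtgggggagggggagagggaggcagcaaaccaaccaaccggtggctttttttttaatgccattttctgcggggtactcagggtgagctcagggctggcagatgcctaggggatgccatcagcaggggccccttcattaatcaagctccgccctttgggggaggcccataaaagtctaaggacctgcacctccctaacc
The TATAAA match began 29 bases before the start in Krt31 and in Krtap8-1, 30 before it in Krt73 and 31 before it in Krt34. In Krt27 it began 15 bases before the start and in Krtap3-1 37 bases before it. The match to CTTTGA began 244 bases before the start in Krt31, and in Krt34 there were matches 240 and 133 bases before it. None of the 3 motifs lay in the window of Krt75.

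RefSeq promoters were matched for 68 of the 79 members, 17 listed genes and 51 Krtap genes. TATAAA lay in 51 of the 68 windows, or 75%, against 7.59% of all 32851 windows of the same length in the table. It was in 6 of 7 inner root sheath keratins, in all 3 of the cortex keratins that were matched and in 41 of 51 Krtap genes. CTTTGA lay in 18 of the 68 windows, or 26.5%, against 13.8% of all windows, and all 3 matched cortex keratins held it. GACGC lay in 5 of the 68, or 7.35%, against 22.6% of all windows. These are letter matches and not binding sites.

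The members reached at least 1 TPM in at least 1 tumor for 75 of 79 genes, against 33% of all gene models. The 4 that did not were Krtap9-5, Krtap19-1, Krtap29-1 and Krtap31-2. Summed over the members, the level was lowest at 2.15 TPM in Cbfb(het) tumor 1 and highest at 13657 TPM in Cbfb(het) tumor 9, against 12.6 TPM in the Cbfb(homo) tumor and 33.9, 4.90 and 2117 TPM in Cbfb(wt) tumors 1, 2 and 3. In tumor 9 the members took 1.37% of all TPM. After it came Cbfb(het) tumors 7, 3, 6 and 2 with 5114, 4726, 3991 and 2696 TPM, then Cbfb(wt) tumor 3, then Cbfb(het) tumor 8 with 1312 TPM. Cbfb(het) tumors 5, 13, 14 and 10 lay between 145 and 222 TPM, and the remaining 7 tumors were at 33.9 TPM or less. High and low tumors were found under both the Cbfb(het) and the Cbfb(wt) label.

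**Figure D1:**
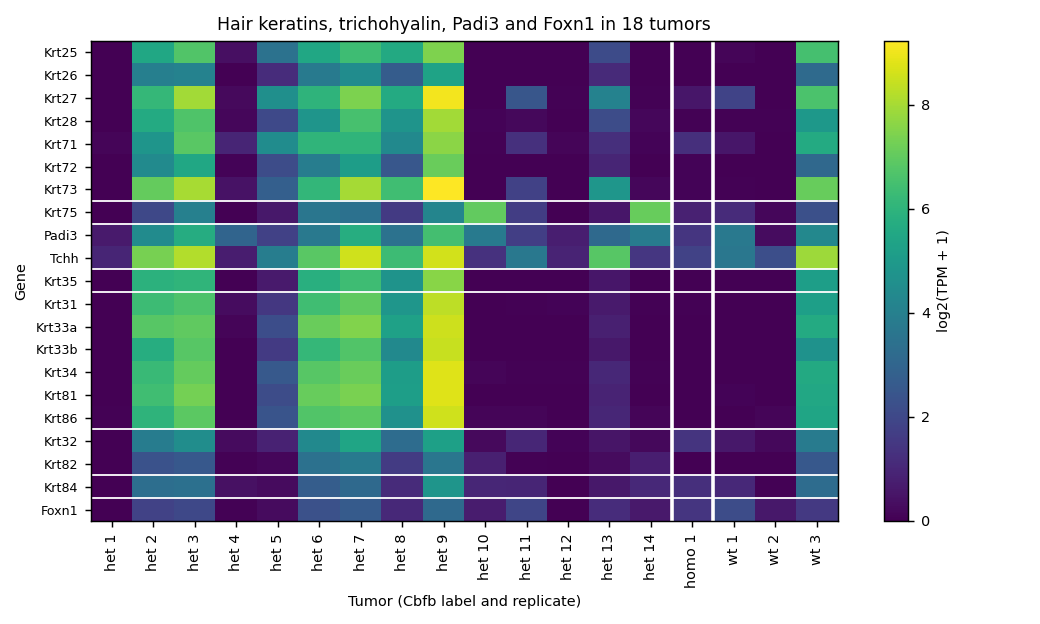
Levels of the 21 listed genes (rows, grouped by layer) in each of the 18 tumors (columns, by Cbfb label and replicate), as log2(TPM + 1). Inner root sheath, cortex and cuticle keratins are high in the same tumors, while Krt75 is highest in Cbfb(het) tumors 10 and 14.

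A layer was counted as present in a tumor when at least 1 in 2 of its members had at least 1 TPM. In a bulk tumor, fewer cells of a layer and less RNA per cell cannot be told apart. The 7 inner root sheath keratins were present by this rule in 8 Cbfb(het) tumors, in no Cbfb(homo) tumor and in 1 Cbfb(wt) tumor. The 6 cortex keratins were present in 7 Cbfb(het) tumors and 1 Cbfb(wt) tumor, and the Krtap genes in 6 Cbfb(het) tumors and 1 Cbfb(wt) tumor. The 8 tumors with cortex present were Cbfb(het) 2, 3, 5, 6, 7, 8 and 9 and Cbfb(wt) 3. The inner root sheath was present in the same 8 and also in Cbfb(het) tumor 13. Cbfb(het) tumor 5 had 28 of the 58 Krtap genes at 1 TPM or more, just under the share that the rule asks.

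Inner root sheath keratins were led by Krt73 and Krt27. Krt27 is a type I keratin of this sheath, and its gene lies on the minus strand of chromosome 11, from 99345565 to 99351104 in GRCm38. It ranged from 0 to 532 TPM over the Cbfb(het) tumors, with a median of 19.6, and it had 0.48 TPM in the Cbfb(homo) tumor and 2.66, 0 and 96.5 TPM in Cbfb(wt) tumors 1, 2 and 3. Krt73, a type II keratin of the sheath cuticle on chromosome 15 from 101793308 to 101802346, ranged from 0 to 598 TPM with a median of 16.9 in Cbfb(het) tumors, against 0.07 TPM in the Cbfb(homo) tumor and 0.04, 0.02 and 134 TPM in Cbfb(wt) tumors. Both groups with several tumors therefore spanned high and near-zero levels and overlapped.

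The other sheath keratins followed the same tumors. Krt25, Krt28 and Krt71, also built into sheath filaments, reached 173, 246 and 197 TPM in Cbfb(het) tumor 9. Krt72 reached 138 TPM there, and Krt26, with the lowest peak of the 7, reached 40.2 TPM. Summed, the 7 genes had 1924 TPM in Cbfb(het) tumor 9, 891 in tumor 3 and 713 in tumor 7, and 413 TPM in Cbfb(wt) tumor 3. Cbfb(het) tumors 1, 10, 12 and 14 had 0.34 TPM or less. Krt74, a sheath keratin outside the set, was low throughout, with a highest value of 0.44 TPM.

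Trichohyalin, encoded by Tchh, and Padi3, the enzyme that converts arginines of trichohyalin to citrulline, had RNA in the most tumors. At least 1 of the 2 genes reached 1 TPM in 12 Cbfb(het) tumors, or 10 without tumors 10 and 14, in the Cbfb(homo) tumor and in all 3 Cbfb(wt) tumors. Tchh ranged from 0.67 to 385 TPM in Cbfb(het) tumors, with a median of 46.3, against 2.52 TPM in the Cbfb(homo) tumor and 11.7, 3.62 and 235 TPM in the Cbfb(wt) tumors. Padi3 ranged from 0.60 to 87.8 TPM with a median of 11.3 in Cbfb(het) tumors, against 1.68 TPM in the Cbfb(homo) tumor and 12.3, 0.23 and 18.9 TPM in the Cbfb(wt) tumors. Padi3 was also seen where hair keratins were near 0, at 13.1 and 13.2 TPM in Cbfb(het) tumors 10 and 14 and at 12.3 TPM in Cbfb(wt) tumor 1.

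Cortex keratins were close to each other in level within a tumor. Krt31, a type I hair keratin on chromosome 11 from 100046646 to 100050551, ranged from 0 to 314 TPM with a median of 1.21 in Cbfb(het) tumors, against 0.03 TPM in the Cbfb(homo) tumor and 0, 0 and 36.0 TPM in the Cbfb(wt) tumors. Krt34, its neighbour from 100037347 to 100041554, ranged from 0 to 435 TPM with a median of 2.98, against 0 TPM in the Cbfb(homo) tumor and 0, 0 and 47.5 TPM in the Cbfb(wt) tumors. In Cbfb(het) tumor 9 the 6 cortex keratins Krt31, Krt33a, Krt33b, Krt34, Krt81 and Krt86 lay between 314 and 442 TPM, and in Cbfb(wt) tumor 3 between 24.9 and 48.8 TPM. The type II members Krt81 and Krt86 are close copies of each other, and both had counts that were not whole in 10 tumors, with a tolerance of 0.005. Such counts mark reads that RSEM shared out between genes. Krt31 and Krt33b had them in 8 tumors each, and Krt33a and Krt34 in 9 each. In the tumors with cortex present, genes with such counts held 29.3% to 51.6% of the counts of the listed members. The split between near copies, and with it their closeness in level, is therefore uncertain.

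Krt35, the type I keratin of the hair matrix and early cortex, was at 1 TPM or more in 6 Cbfb(het) tumors, with a highest value of 193 TPM, and in Cbfb(wt) tumor 3 at 35.4 TPM. Cbfb(het) tumor 5 had all 6 cortex keratins at 1.82 to 4.92 TPM but Krt35 at 0.59 TPM. Of 5 hair keratins outside the set, Krt83 reached 397 TPM and Krt36 81.6 TPM in Cbfb(het) tumor 9, and they had 37.5 and 16.9 TPM in Cbfb(wt) tumor 3. Krt83 had counts that were not whole in 11 tumors, so its level is uncertain too.

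Cuticle keratins were low beside the cortex. Krt32, a type I keratin of the hair cuticle, ranged from 0 to 41.8 TPM with a median of 0.93 in Cbfb(het) tumors, against 1.63 TPM in the Cbfb(homo) tumor and 0.50, 0.15 and 13.4 TPM in the Cbfb(wt) tumors. Krt82, its type II counterpart, had a highest value of 12.8 TPM, in Cbfb(het) tumor 7. By the rule the cuticle was present in 7 Cbfb(het) tumors, the Cbfb(homo) tumor and 1 Cbfb(wt) tumor, and in Cbfb(het) tumor 11 and the Cbfb(homo) tumor this rested on Krt32 alone, at 1.00 and 1.63 TPM. Krt84, a hair-type keratin known from tongue and nail, peaked at 26.8 TPM in Cbfb(het) tumor 9.

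**Figure D2:**
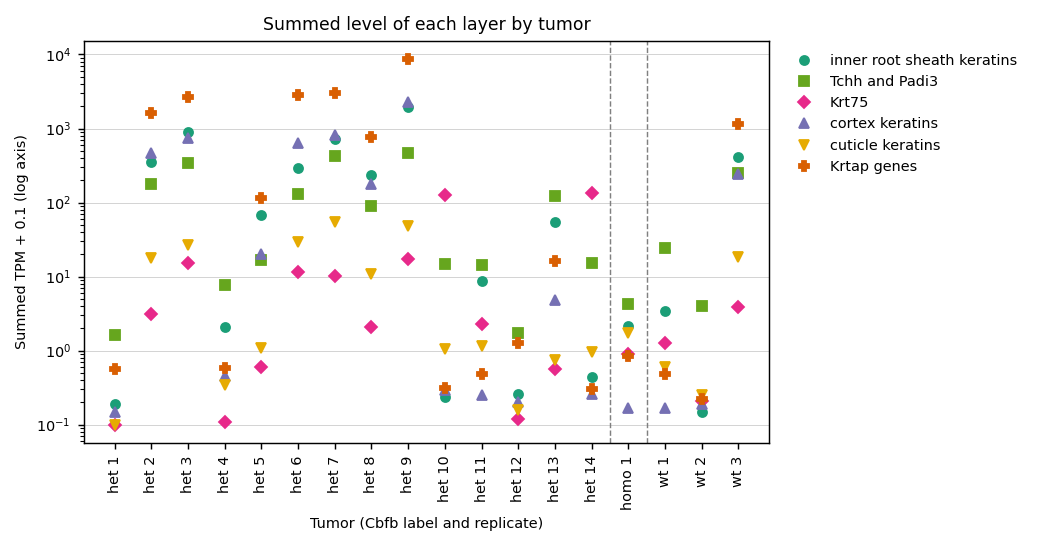
Summed TPM of the genes of each layer (points, log axis with 0.1 added) in each tumor, with dashed lines between Cbfb(het), Cbfb(homo) and Cbfb(wt) tumors. Krtap genes lie highest in the 8 tumors with cortex present, from 115 TPM in Cbfb(het) tumor 5 to 8689 TPM in tumor 9.

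The balance of layers differed among tumors. Summed cortex keratins over summed sheath keratins gave 2.19 in Cbfb(het) tumor 6, 1.3 in tumor 2, 1.18 in tumor 9 and 1.16 in tumor 7. The ratio was 0.84 in Cbfb(het) tumor 3, 0.76 in tumor 8 and 0.29 in tumor 5, and it was 0.59 in Cbfb(wt) tumor 3. In Cbfb(het) tumor 13 it was 0.088, with 54.2 TPM of sheath keratins and 114 TPM of Tchh beside 4.75 TPM of cortex keratins and 16.2 TPM of Krtap genes. Tumor 13 thus had 6 of 7 sheath keratins and 1 of 6 cortex keratins at 1 TPM or more. Cbfb(het) tumor 11 had a trace of the sheath, with Krt27 at 4.48, Krt73 at 2.42 and Tchh at 11.8 TPM, and 0.15 TPM of cortex keratins.

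**Figure D3:**
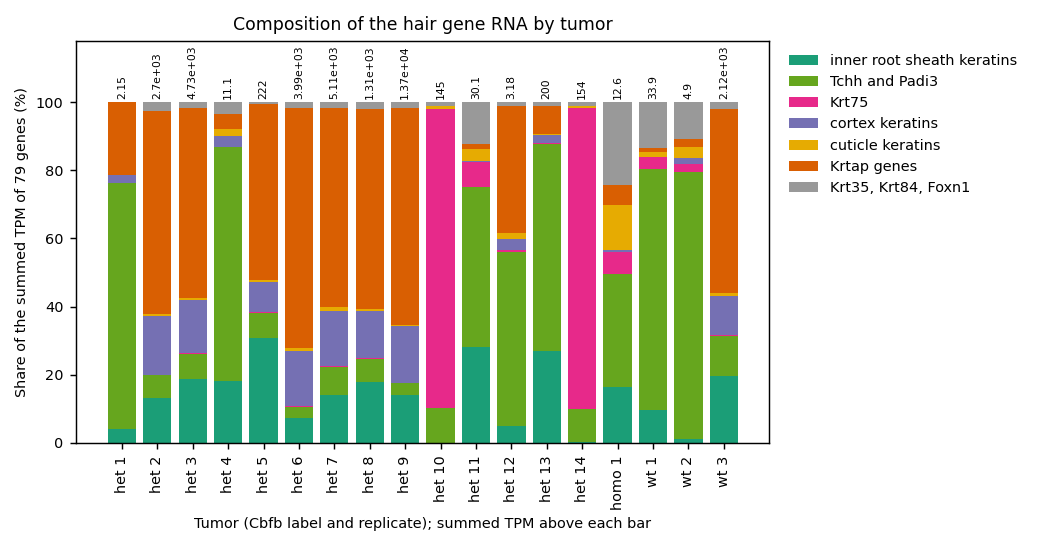
Share of the summed TPM of the 79 genes taken by each layer (stacked bars, percent) in each tumor, with the summed TPM above each bar. Krtap genes take 51.8% to 70.6% in the 8 tumors with cortex present, Krt75 takes most in Cbfb(het) tumors 10 and 14, and sheath keratins with Tchh and Padi3 take most in tumor 13.

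Keratin-associated proteins, which crosslink and fill the space between hair keratin filaments, were the largest layer in summed TPM in the 8 tumors with cortex present. Tchh with Padi3 held the largest sum in 8 other tumors, and Krt75 in Cbfb(het) tumors 10 and 14. Krtap8-1, on chromosome 16 from 89487379 to 89487952, encodes a small glycine- and tyrosine-rich protein. Its level ranged from 0 to 1570 TPM in Cbfb(het) tumors with a median of 10.8, against 0 TPM in the Cbfb(homo) tumor and 0.11, 0 and 215 TPM in the Cbfb(wt) tumors. Behind the highest value stood 17329 counts, and 1930 in Cbfb(wt) tumor 3. Krtap7-1, of the same protein type and from 89507703 to 89508323, ranged from 0 to 1486 TPM with a median of 7.29, against 0 TPM in the Cbfb(homo) tumor and 0, 0 and 184 TPM in the Cbfb(wt) tumors. Krtap3-1, a high-sulfur protein gene on chromosome 11 from 99566027 to 99566630, ranged from 0 to 691 TPM with a median of 3.19, against 0 TPM in the Cbfb(homo) tumor and 0, 0.10 and 92.8 TPM in the Cbfb(wt) tumors.

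The order within the Krtap genes was much the same wherever they were high. Krtap8-1 was first and Krtap7-1 second in all 8 tumors with cortex present, and Krtap3-1 was the third in 7 of these, with Krtap22-2 in that place in Cbfb(het) tumor 5. The first 3 genes together held 36.3% to 45.0% of Krtap TPM in these tumors. By family, family 8 held the largest share of Krtap TPM in all 8 tumors, at 16.8% to 19.9%. Family 3 held 9.0% to 18.2% and family 7 held 11.4% to 17.7%, and family 3 was above family 7 in 4 of the 8. Grouped by the classes known for the human families, glycine- and tyrosine-rich genes held 39.1% to 47.3% of Krtap TPM in the 8 tumors, high-sulfur genes 34.8% to 45.0% and ultrahigh-sulfur genes 14% to 17.2%. Krtap TPM over cortex keratin TPM lay between 3.45 and 5.79 in these tumors, and it was 3.41 in Cbfb(het) tumor 13. Genes with counts that were not whole held 16.8% to 44.1% of Krtap counts in the 8 tumors. Values of close copies, such as the Krtap3 genes and some Krtap4 and Krtap9 genes, are therefore uncertain. Krtap3-1 had such counts in 8 tumors and Krtap3-2 and Krtap3-3 in 10 each, whereas Krtap8-1 and Krtap7-1 had them in 0.

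Some Krtap genes, named after their values were seen, went against this order. Krtap6-3 had 70 counts and 7.66 TPM in Cbfb(het) tumor 3 and no more than 2 counts in any other tumor. Krtap20-2 had 23 counts and 2.41 TPM in Cbfb(het) tumor 3 and 0 in every other tumor. Krtap1-5 was the leading Krtap gene in Cbfb(het) tumor 12, at 0.81 TPM from 14 counts. The values of Krtap19-9a, up to 10.3 TPM, rest on at most 4 counts of a model of 166 bases, too few to place it.

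**Figure D4:**
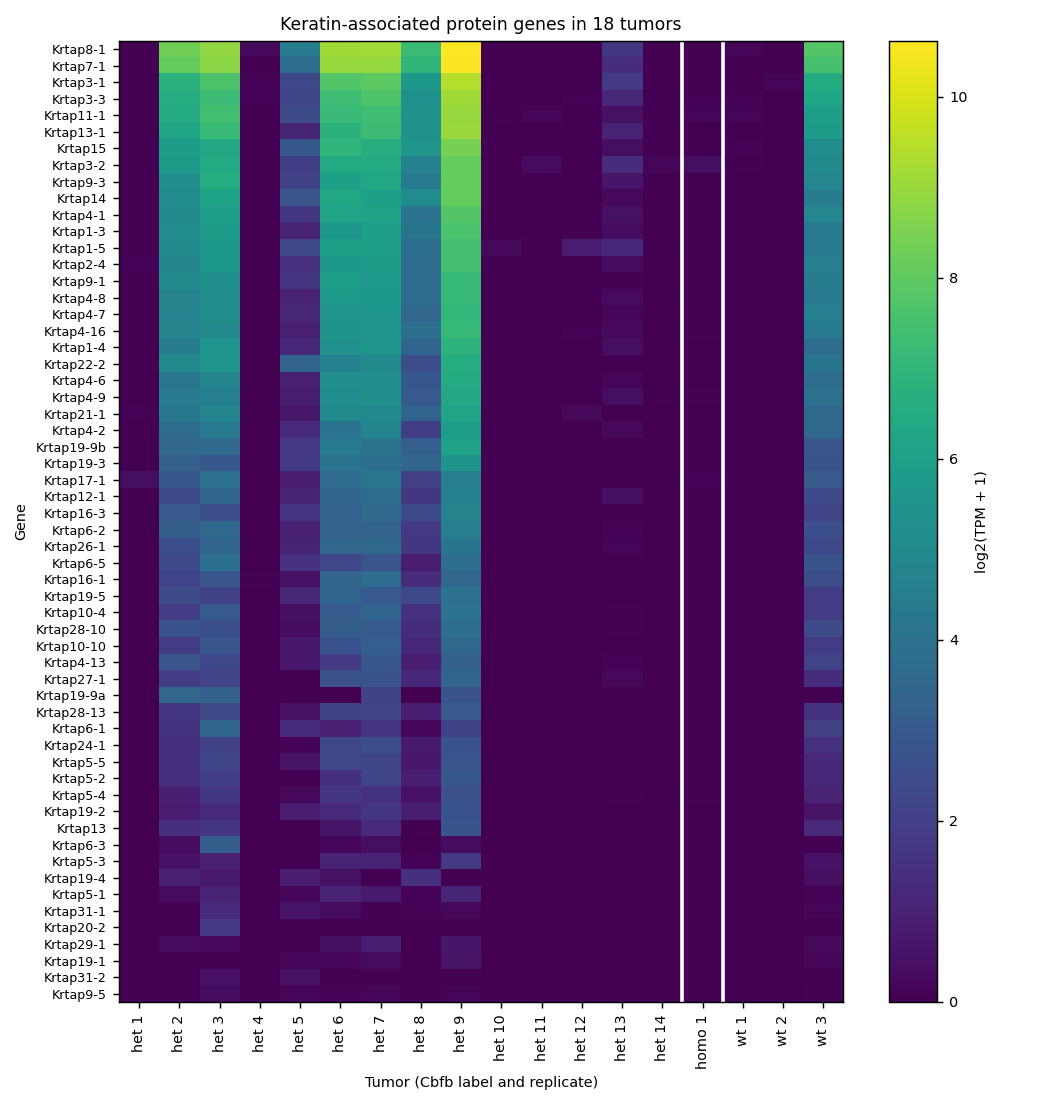
Levels of the 58 Krtap genes (rows, ordered by TPM summed over tumors) in each tumor (columns), as log2(TPM + 1). The order of genes is alike in Cbfb(het) tumors 2, 3, 6, 7, 8 and 9 and in Cbfb(wt) tumor 3. Most genes are at or near 0 in the other tumors except Cbfb(het) tumor 5, where 28 reach 1 TPM. In Cbfb(het) tumor 13, 7 do.

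The members lie in a few gene clusters. On chromosome 11, 33 members from Krt25 to Krt35, 23 of them Krtap genes, span 780.7 kb from 99315516 to 100096241. On chromosome 15, 8 type II members from Krt81 to Krt73 lie between 101459061 and 101802346. On chromosome 16, 25 Krtap genes lie between 88610705 and 89571183, and the 5 Krtap5 genes lie together on chromosome 7. Krt25 and Krt27 of the sheath thus share a cluster with Krt31 and Krt34 of the cortex, while Krt75 shares the chromosome 15 cluster with Krt81 and Krt73.

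Krt75, a type II keratin of the companion layer and the medulla, was high in other tumors than its neighbours. The gene lies on the minus strand of chromosome 15 from 101563345 to 101573904. It had 127 and 135 TPM in Cbfb(het) tumors 10 and 14, from 9039 and 9938 counts, and the next highest values were 17.2 and 15.2 TPM in Cbfb(het) tumors 9 and 3. The lowest Cbfb(het) value was 0 and the median 2.63 TPM, or 2.10 TPM without tumors 10 and 14, against 0.81 TPM in the Cbfb(homo) tumor and 1.17, 0.11 and 3.78 TPM in the Cbfb(wt) tumors. In tumors 10 and 14 the 7 sheath keratins summed to 0.14 and 0.34 TPM and the 6 cortex keratins to 0.19 and 0.16 TPM. These tumors had 14839 and 15226 TPM of 4 fibroblast markers and 106 and 111 TPM of 5 luminal epithelial markers. Cbfb(het) tumor 12, with 11479 and 965 TPM of these markers, had Krt75 at 0.02 TPM. Cbfb(wt) tumor 2, with 5473 and 115 TPM of them, had Krt75 at 0.11 TPM. The 7 basal and outer root sheath keratins summed to 13523 and 14058 TPM in Cbfb(het) tumors 10 and 14. Among them Krt5 had 3516 and 3603 TPM, against a Cbfb(het) median of 743. Krt15 had 8.55 and 7.16 TPM, against a median of 78.0. The part of fibroblasts and epithelial cells in the Krt75 level was not tested.

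Foxn1 (chromosome 11, 78357577 to 78386558) had low RNA in most tumors, also where hair keratins were near 0. It ranged from 0 to 7.88 TPM with a median of 1.19 in Cbfb(het) tumors, against 1.71 TPM in the Cbfb(homo) tumor and 3.45, 0.50 and 1.89 TPM in the Cbfb(wt) tumors. The highest values were 7.88 and 5.29 TPM in Cbfb(het) tumors 9 and 7. Yet Cbfb(wt) tumor 1, with 0.07 TPM of cortex keratins, had 3.45 TPM, above the 1.89 TPM of Cbfb(wt) tumor 3 with 245 TPM of cortex keratins.

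Other genes of hair differentiation were read from a list of 35. Hoxc13, a homeobox factor needed for hair keratin expression, was highest in the Cbfb(homo) tumor at 20.5 TPM, where the cortex keratins summed to 0.07 TPM. It ranged from 0 to 14.2 TPM with a median of 2.10 in Cbfb(het) tumors, and it had 1.45, 0.10 and 2.92 TPM in the Cbfb(wt) tumors. Dlx3, a homeobox factor of the hair matrix, ranged from 0.21 to 50.5 TPM with a median of 9.25 in Cbfb(het) tumors, against 2.40 TPM in the Cbfb(homo) tumor and 4.12, 0.31 and 14.6 TPM in the Cbfb(wt) tumors. Shh, the signal made by hair matrix cells, was at 1 TPM or more in 6 Cbfb(het) tumors and in Cbfb(wt) tumor 3, with a highest value of 6.05 TPM. Those were the 7 tumors with Krt35 at 1 TPM or more. Lef1, whose protein binds the CTTTGA core, ranged from 0.28 to 7.24 TPM with a median of 1.13 in Cbfb(het) tumors. It was highest in tumor 1, which had the lowest summed level of the members, and next in tumor 9, at 6.45 TPM. The Cbfb(homo) tumor had 2.04 TPM of Lef1, and Cbfb(wt) tumors 1, 2 and 3 had 0.32, 4.16 and 1.59 TPM. S100a3, a calcium-binding protein of the hair cuticle, ranged from 0.34 to 628 TPM with a median of 6.73 in Cbfb(het) tumors, against 4.83 TPM in the Cbfb(homo) tumor and 1.55, 2.77 and 80.5 TPM in the Cbfb(wt) tumors.

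**Figure D5:**
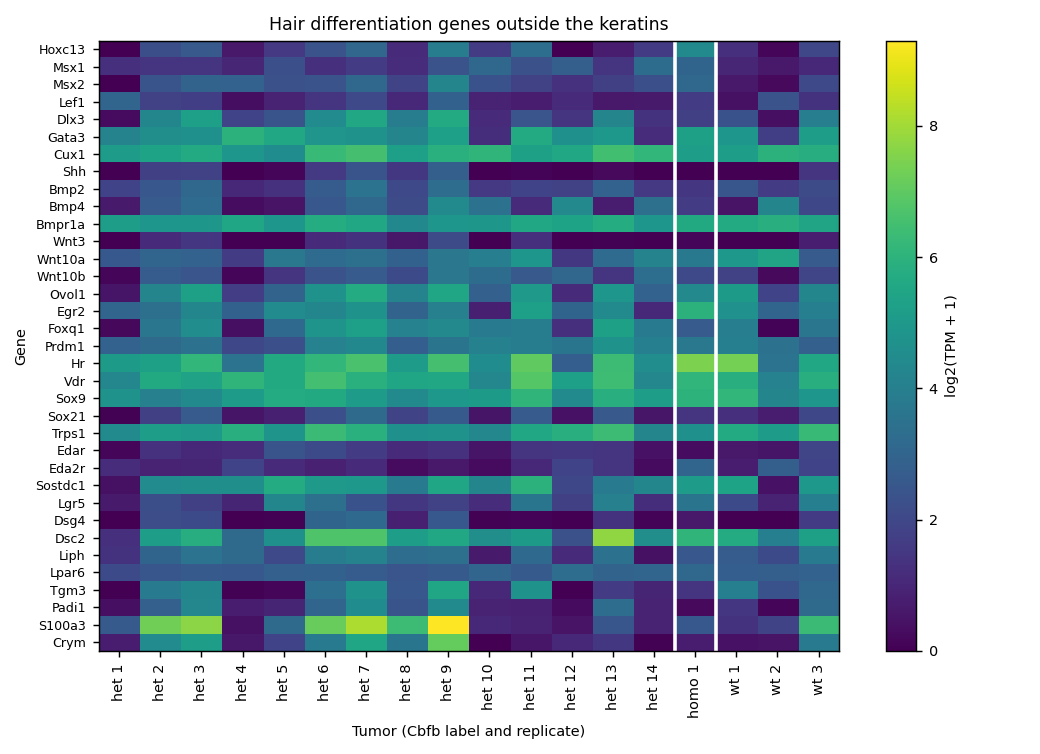
Levels of 35 genes of hair differentiation outside the keratins (rows) in each tumor (columns), as log2(TPM + 1). S100a3, Crym, Dlx3 and Shh have their highest values in Cbfb(het) tumor 9, whereas Hoxc13 is highest in the Cbfb(homo) tumor.

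Markers of other cells that hair-bearing skin holds were read in the same tumors. The 6 melanocyte markers summed to 0.29 to 1.99 TPM in Cbfb(het) tumors, 1.3 TPM in the Cbfb(homo) tumor and 0.72 to 1.19 TPM in Cbfb(wt) tumors. Tyr, the defining enzyme of pigment synthesis, had 0 counts in 17 of 18 tumors. The 4 dermal papilla markers summed to 6.90 to 965 TPM in Cbfb(het) tumors, 41.8 TPM in the Cbfb(homo) tumor and 24.2, 1013 and 64.3 TPM in Cbfb(wt) tumors. Of these, Corin had 0 counts in 13 tumors and a highest level of 0.35 TPM. Wif1, a secreted Wnt inhibitor, was at 112 and 101.2 TPM in Cbfb(het) tumors 6 and 9, and Crabp1, a retinoic acid binding protein, was at 964 TPM in Cbfb(het) tumor 1 and 1012 TPM in Cbfb(wt) tumor 2. The 6 sebaceous markers summed to 3.08 to 2843 TPM in Cbfb(het) tumors, 384 TPM in the Cbfb(homo) tumor and 1.70 to 317 TPM in Cbfb(wt) tumors, mostly from Krt79, which is also a keratin of the follicle's infundibulum. Awat1, a wax synthase of sebocytes, was at 54.6 TPM in Cbfb(het) tumor 5 and at 2.53 TPM or less in every other tumor.

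Epidermal markers differed in how many tumors held them, while basal markers were widespread. The 9 markers of the epidermis between follicles summed to 17.5 to 8242 TPM in Cbfb(het) tumors, 4832 TPM in the Cbfb(homo) tumor and 299 to 4591 TPM in Cbfb(wt) tumors. These sums came mostly from Krtdap and Sbsn, which were at 1 TPM or more in 18 tumors. Krt10 was so in 17 tumors, Krt1 in 16, Ivl in 15, Flg in 13, Lor in 10, Krt2 in 4 and Krt77 in 3. The 7 basal and outer root sheath keratins summed to 256 to 20701 TPM in Cbfb(het) tumors, 35059 TPM in the Cbfb(homo) tumor and 2251 to 16945 TPM in Cbfb(wt) tumors. The 6 skeletal muscle markers summed to 3.33 to 4261 TPM in Cbfb(het) tumors, 178 TPM in the Cbfb(homo) tumor and 6.70, 32.4 and 6.88 TPM in Cbfb(wt) tumors. Among Cbfb(het) tumors they were highest in 5, 1, 11 and 3, at 4261, 733, 355 and 138 TPM, and tumor 9, with the most hair gene RNA, had 7.13 TPM. Luminal epithelial markers and milk genes were read to check the labelled mammary tissue. The 5 luminal markers summed to 106 to 5097 TPM in Cbfb(het) tumors, 3830 TPM in the Cbfb(homo) tumor and 3509, 115 and 3421 TPM in Cbfb(wt) tumors. The 5 milk genes summed to 22.6 to 136041 TPM in Cbfb(het) tumors, 2442 TPM in the Cbfb(homo) tumor and 2834, 6.42 and 80587 TPM in Cbfb(wt) tumors. Both sums were lowest in Cbfb(het) tumors 10 and 14 and Cbfb(wt) tumor 2. The part of these other cells in the hair gene levels was not tested.

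Cbfb(het) tumors were set against Cbfb(wt) tumors with edgeR's quasi-likelihood test over all 18494 genes that passed a filter on low counts, adjusted by the Benjamini-Hochberg method. Of the members, 70 passed the filter and 9 did not. None of the 70 was called at an adjusted p under 0.05, against 0% of all genes, and none had an unadjusted p under 0.05, against 3.37% of all genes. All 70 had a positive log2 fold change, Cbfb(het) over Cbfb(wt), against 53.2% of all genes, while with limma-voom 69 of them did. The members are high or low together in a tumor, so these 70 signs are not independent. Most of the members were near 0 in Cbfb(wt) tumors 1 and 2, so they passed the filter through Cbfb(het) tumors where they were high. The set was also chosen with these levels known, so this share of positive signs is a description and no test. Their median log2 fold change was 1.93, beside 0.03 over all genes tested, with standard errors from 1.34 to 2.98.

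The named members had wide errors in this comparison. Krt31 had a log2 fold change of 2.35 ± 2.77 (SE), Krt27 of 1.57 ± 2.42 and Krtap8-1 of 2.03 ± 2.81, all with an adjusted p of 0.999 in edgeR's quasi-likelihood test. Foxn1 had the smallest change of the members, 0.35 ± 1.34, which turned to -0.941 with limma-voom. Krtap5-1, which encodes an ultrahigh-sulfur protein, had the smallest unadjusted p, 0.107, in the same edgeR fit, with a log2 fold change of 3.42 ± 2.01 that was 1.46 with limma-voom. It had at most 18 counts in a Cbfb(het) tumor and at most 1 in a Cbfb(wt) tumor. Krt75 had the largest change, 3.88 ± 2.49, with an unadjusted p of 0.137 in edgeR. It was 1.37 with limma-voom, 3.27 with Cbfb(het) tumors 10 and 14 counted as 1 library and 1.79 with both left out.

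The size of these changes rested on Cbfb(wt) tumor 3. Without it the median of the members was 9.75, a value set by near-zero counts in the other 2 Cbfb(wt) tumors and no bound, and 4 members had an unadjusted p under 0.05 in edgeR. The median was 1.34 without Cbfb(wt) tumor 1 and 1.34 without Cbfb(wt) tumor 2, and 1.28 without Cbfb(het) tumor 9. No member was called in any of these fits. DESeq2 called none and gave an unadjusted p under 0.05 for 1 member, Krt75 with p = 0.0219, and limma-voom called none and gave such a p for 0 members.

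Of the 35 genes of hair differentiation all were tested, none was called by edgeR, 28 had a positive and 7 a negative log2 fold change, and the median was 0.48. Msx1, a homeobox factor, was the only one with an unadjusted p under 0.05 in edgeR, with a log2 fold change of 2.03 ± 0.66, p = 0.00701 and adjusted p = 0.999. Its change was 1.60 with Cbfb(het) tumors 10 and 14, its highest tumors, left out. It ranged from 1.02 to 8.68 TPM with a median of 1.91 in Cbfb(het) tumors, and from 1.02 to 6.01 TPM with a median of 1.70 without tumors 10 and 14, against 6.93 TPM in the Cbfb(homo) tumor and 1.02, 0.54 and 1.11 TPM in the Cbfb(wt) tumors. The 4 tested hair keratins outside the set, Krt36, Krt39, Krt40 and Krt83, had log2 fold changes from 1.3 to 2.54, and none was called by edgeR.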

How the data were processed

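RNA of 18 mouse mammary tumors was measured by RNA-seq. Per the labels' protocols, RNA was extracted with Trizol and libraries were made with a TruSeq stranded mRNA kit. Per the submitters' processing notes, the build was mm10 and the tools included RSEM 1.3.1 and STAR 2.7.0f. The authors deposited an expected count and a TPM value per gene and tumor, made by RSEM per the file headers, which shares out reads that fit several genes. Neither a strand setting nor a named annotation was found in the labels or file headers. All 55450 gene IDs occur in GENCODE release M21, from which positions were taken. Promoter windows are RefSeq's, on GRCm38.p6.

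Expected counts were rounded to whole numbers. The 14 Cbfb(het) and 3 Cbfb(wt) tumors were compared with edgeR 4.0.16 in R 4.3.3 (filterByExpr, TMM factors, robust quasi-likelihood F-test, Benjamini-Hochberg adjustment, threshold 0.05). Standard errors given with edgeR fold changes are approximate. Each is the absolute log2 fold change divided by the square root of the F statistic. The single Cbfb(homo) tumor entered no test. Alternatives were DESeq2 1.42.0, limma-voom of limma 3.58.1, no filter, all 18 tumors in the fit, each tumor left out, and tumors 10 and 14 counted as 1 or left out. The last was chosen after seeing the data. The fit was tested on simulated counts that gave every gene the same relative spread between tumors. That test does not show how the fit handles genes that vary as widely as the members.

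Members and lists were chosen with earlier results of these data known. All listed members were named, and the 3 Krtap genes with the highest summed TPM, since classes by protein composition could not be made. Other Krtap genes were named after their values were seen. Samples are separate mice per the series design. The labels name no batch. With 3 Cbfb(wt) tumors, precision is limited by the number of tumors and not by depth, and intervals for counting error are not given.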

Additional observations from a re-analysis of the deposited data

How the results depend on the processing

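No paired analysis was possible because the labels give every tumor the same repeat number, and the replicate numbers used here only name tumors. No member was called under any alternative. Over all genes, 1 was called without the low-count filter and 1 with all 18 tumors in the fit, in both cases Tex11, with adjusted p-values of 0.0261 and 0.0175. The Foxn1 log2 fold change turned to -0.941 with limma-voom. With 1 tumor left out in turn it ranged from -0.111 without Cbfb(wt) tumor 2 to 1.009 without Cbfb(wt) tumor 1, and it was -0.017 without Cbfb(het) tumor 9. That of Krt25 ranged from -0.024 without Cbfb(wt) tumor 2 to 9.97 without Cbfb(wt) tumor 3, and it was -0.023 without Cbfb(wt) tumor 1. The cause of these changes was not tested. The number of tumors with Krt75 at the threshold became 6 at 5 TPM. Krt84 was in 6 tumors at 2 TPM and in 6 at 5 TPM, and Foxn1 in 7 at 2 TPM and in 2 at 5 TPM. The cuticle was present in 14 tumors when 10 counts replaced 1 TPM. Of the other values recomputed under the alternatives, 804 kept their direction and their side of the threshold, or stayed within 1.5 times for counts. The named genes had an adjusted p of 0.999 in the main edgeR fit, so keeping their side of the threshold says little. The size of a fold change was not part of this rule. That of Krt31 went from 2.35 to 14.1 without Cbfb(wt) tumor 3 and still counts as kept. TPM carries no depth: Tchh at 0.67 TPM in Cbfb(het) tumor 4 rests on 116 counts, whereas the much shorter Krtap19-9a at 10.3 TPM in Cbfb(het) tumor 2 rests on 4. Without Cbfb(het) tumors 10 and 14, Krt75 reached 1 TPM in 7 Cbfb(het) tumors in place of 9 and Krt84 in 6 in place of 7.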
